A study of Mus musculus with 9 samples.

Results

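Cytosolic ribosomal protein genes encode the proteins of the ribosome in the cytoplasm, those of the large subunit (symbols beginning Rpl) and of the small subunit (Rps). In the arrays analysed here 67 such genes had a usable probe set, 43 of the large and 24 of the small subunit, of 20422 genes in all. They were chosen by name alone: a symbol made of Rpl or Rps, a number and optional letters, or Rplp0, Rplp1, Rplp2 or Rpsa, with the S6 kinases and pseudogene symbols left out. No measured value entered the choice. A ribosome holds 1 copy of most of these proteins, and cells make them in matched amounts with ribosomal RNA. Many of their mRNAs begin with a short tract of pyrimidines, the 5′ terminal oligopyrimidine (TOP) motif, through which the kinase mTOR and the RNA-binding protein Larp1 adjust their translation and stability. Most of the genes are active in every tissue, a few paralogs mainly in one, and several serve as reference genes in PCR.

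The study compared cells of 3 origins, with 3 arrays each. ME is RNA of freshly isolated mouse mammary epithelial cells, and no reprogramming agent was used on them. D-ME-iPSC and D-TF-iPSC are differentiated induced pluripotent stem cells (iPSCs), made from cultured ME cells and from tail tip fibroblasts of adult mice, and the methods give virgin females as the donors of ME cells. Both kinds of iPSC had been made with retroviruses for Oct4, Sox2, Klf4 and c-Myc and a lentivirus for an EGFP reporter, on a feeder layer of mouse embryonic fibroblasts, and both then went through the same stepwise mammary differentiation on Matrigel. The labels give neither the age nor the strain of the animals behind an array, nor the number of iPSC lines, and they do not say whether the 3 arrays of a group came from separate animals or cultures. The p-values therefore measure the spread between arrays, which may be technical. The question behind the comparisons is how far iPSCs of mammary and of fibroblast origin come to express the genes of ME cells.

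The deposited values are on a log2 scale, 1 per exon-level probe set, and they were averaged over the probe sets that name a single gene. Medians of single arrays lay between 7.45 and 7.61. The upper quartiles of ME replicates 2 and 3 stood at 8.97 and 9.05, below the range of 9.12 to 9.28 that the remaining 7 had. The ME arrays were not alike. ME replicate 1 correlated with the D-ME-iPSC arrays at 0.991 to 0.993 over all genes and with ME replicates 2 and 3 at 0.92 and 0.943, so the label of this array is in doubt, and values of ME over all arrays include it as labelled. For ME, the numbers of ribosomal protein genes called and their medians are given with and without it. Changes in the call of single genes without it are given for some genes only. The 6 mammary epithelial markers (Epcam, Cdh1 and the keratins Krt5, Krt8, Krt14 and Krt18) were all higher than in D-TF-iPSC in both other groups. Of 5 fibroblast markers 3 were lower than in D-TF-iPSC in both groups and 1 was higher in ME, and their summed level on the log2 scale was 12.16, 12.97 and 13.32 in the ME arrays, 12.20 to 12.23 in the D-ME-iPSC arrays and 13.14 to 13.21 in those of D-TF-iPSC. All 5 immediate early genes, which cell dissociation can induce, were higher than in D-TF-iPSC in both groups, and their summed level was 12.24, 13.08 and 13.23 in ME, 12.36 to 12.39 in the D-ME-iPSC arrays and 10.87 to 11.02 in those of D-TF-iPSC. None of 5 genes of dividing cells was called with all arrays. For all 5, every D-ME-iPSC array nevertheless lay above every D-TF-iPSC array, with a median log2 fold change of 0.65. When ME replicate 1 was left out, limma called 3 of them higher in this comparison. ME then had 1 lower against D-TF-iPSC and 3 lower against D-ME-iPSC, with medians of -0.4 and -1.1. The summed level of the 5 genes was 12.31, 10.83 and 11.95 in ME. It was 12.08 to 12.13 in the D-ME-iPSC arrays and 11.42 to 11.56 in those of D-TF-iPSC. Of 8 immune cell markers 1 was called, lower than in D-TF-iPSC in both other groups, and their summed level spanned 10.18 to 11.67, 10.05 to 10.17 and 12.13 to 12.43 in the same order of groups. The part of these differences in the results below was not tested. In such bulk RNA, fewer cells of a type and less RNA per cell cannot be told apart.

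Ribosomal protein genes have many processed pseudogenes, which their probe sets may read. The array's own numbering shows which probe sets lie among those of another chromosome than their gene. Probe sets are numbered along the genome: for 186871 probe sets of other genes, the nearest 20 neighbours in number on each side belonged mostly to another chromosome than the gene itself in only 0.492%. Among the 226 probe sets of the ribosomal protein genes this was so for 43, or 19% of them, in 24 of the genes. For Rpl5, Rpl7a, Rpl11, Rpl13, Rpl31, Rpl36a and Rpl37a it held for every probe set they have. The single Rpl5 probe set lay among probe sets of chromosome 7, while the gene is on chromosome 5, the Rpl11 probe set lay among those of chromosome 3 and the gene is on chromosome 4, and the Rpl31 probe set lay among those of chromosome 7 and the gene is on chromosome 1. Further, 7 probe sets in 6 genes (Rpl12, Rpl35, Rpl38, Rpl41, Rps10 and Rps28) had the same values in all arrays as another probe set of the same gene. The genes had a median of 3 probe sets, against 8 over all genes, and 16 of them had 1. Another 219 probe sets carry a ribosomal protein symbol beside a second symbol and were not used. Values of Rpl9, Rpl15, Rpl17, Rpl24, Rps3a and Rps16, found only on such probe sets, are not analysed here. Some calls below are therefore also given with only those probe sets that are numbered among their own chromosome, which leaves 60 genes. This choice does not make the values free of pseudogene signal. In Rpl35, Rpl38, Rpl41 and Rps10 a kept probe set has the same values as one numbered among another chromosome. Pseudogenes on the gene's own chromosome are not left out either. Whether the kept probe sets read pseudogenes was not tested.

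As a group the ribosomal protein genes differed little between the iPSC-derived cultures and were somewhat higher in the ME cells. Set against the mean of the D-TF-iPSC arrays, gene by gene, the median of the 67 genes was 0.04, 0.07 and 0.08 (log2) in the 3 D-ME-iPSC arrays. It was 0.34 in ME replicate 2 and 0.23 in ME replicate 3, where 58 and 56 of the 67 genes lay above the D-TF-iPSC mean. In ME replicate 1 the median was 0.03 and 38 genes lay above that mean, which is close to the D-ME-iPSC arrays, with 39, 40 and 42. The D-TF-iPSC arrays themselves lay at -0.02, 0.05 and -0.03, and 54 genes were above the mean in replicate 2, so the median of these genes moves from array to array also within a group. These genes are bright, and 63 of them lie above the median level of all genes, so they are set beside the brightest 10% of other genes (1995 genes). That set moved the other way in the ME arrays: its median was 0.16 in ME replicate 1, and -0.12 and -0.08 in replicates 2 and 3. Over all genes the median was -0.03, 0.07 and -0.01 in ME replicates 1, 2 and 3. In the D-TF-iPSC arrays it was 0.01, 0 and -0.01. The share of all genes above the D-TF-iPSC mean was not counted.

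**Figure D1:**
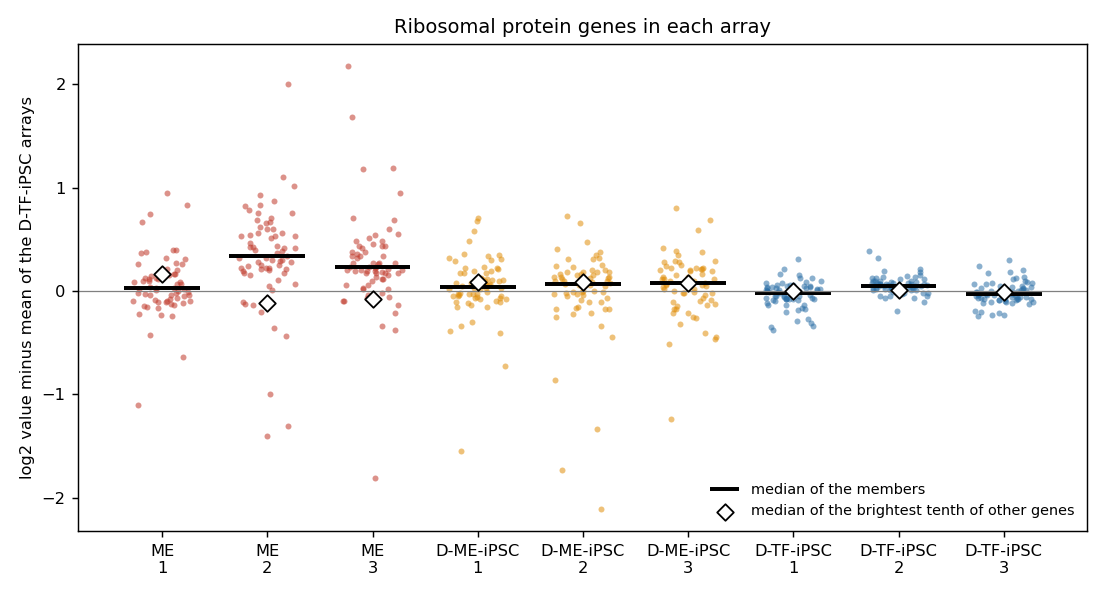
Log2 value of each of the 67 ribosomal protein genes minus its mean over the D-TF-iPSC arrays (y axis) in each of the 9 arrays (x axis, group and replicate number); points are genes, bars are the median of the genes and diamonds the median of the brightest 10% of other genes. The bar stands at 0.34 and 0.23 in ME replicates 2 and 3 and between -0.03 and 0.08 in the other 7 arrays, while the diamond is below 0 in those 2 ME arrays.

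Between the iPSC-derived groups, 3 of the 67 genes passed the test (limma over all 20422 genes, Benjamini-Hochberg adjusted p under 0.05). Rps21 and Rpl14 were higher in D-ME-iPSC and Rpl39l was lower. Over all genes 6.83% were called higher and 6.45% lower, 13.3% in all, so 2 higher and 1 lower of 67 is a smaller share than in the table as a whole. At an unadjusted p under 0.05, 10 ribosomal protein genes were higher and 1 lower, against 13% and 11.8% of all genes (24.8% either way). The median log2 fold change was 0.04 over the ribosomal protein genes, -0.01 over all genes and 0.09 over the brightest 10%, and 42 of the 67 changes were positive (48.8% over all genes, with and without ME replicate 1). The direction of that median rests on the scaling: with the arrays shifted so that the brightest 10% has the same median in each, it was -0.05. By subunit the median was 0.01 for the large and 0.09 for the small subunit. The arrays of the 2 groups did not overlap for 20 genes that were higher and 6 that were lower in D-ME-iPSC, against 25.2% and 23.2% of all genes. Without ME replicate 1, which enters this comparison only through the shared estimate of the spread, 6 genes were called higher and 1 lower (15.5% and 12.8% of all genes).

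With all arrays Rpl39l showed the largest difference from D-TF-iPSC of any ribosomal protein gene, in D-ME-iPSC and in ME alike. It is a paralog of Rpl39, a small protein at the exit tunnel of the large subunit, and is known mainly from the testis. Its log2 value was 6.84, 7.03 and 6.88 in the D-TF-iPSC arrays, 5.37, 5.58 and 5.68 in D-ME-iPSC and 5.81, 5.51 and 5.11 in ME. All 6 arrays of mammary origin lay below all D-TF-iPSC arrays. The log2 fold change was -1.37 ± 0.17 (SE, 3 arrays per group, adjusted p = 0.00096 by limma) in D-ME-iPSC and -1.44 ± 0.17 (adjusted p = 0.00067) in ME. The gene is dim, below the array medians in every array, and whether its values in the mammary groups were above background was not tested, so the size of the difference is uncertain. Its 3 probe sets, all numbered among chromosome 16 where the gene lies, gave -1.66, -1.45 and -1.02 for D-ME-iPSC, and -1.99, -1.50 and -0.83 for ME. The call stood under each left-out array in both comparisons, and in ME it missed the threshold by the methods' t-test after adjustment (adjusted p = 0.062). For Rpl39 itself the values were 12.45, 12.57 and 12.63 in D-TF-iPSC, 12.44, 12.34 and 12.30 in D-ME-iPSC and 12.46, 12.70 and 12.72 in ME. The D-ME-iPSC arrays lay just below those of D-TF-iPSC and the ME arrays overlapped them. Its log2 fold change was -0.19 ± 0.11 in D-ME-iPSC (adjusted p = 0.35) and 0.07 ± 0.11 in ME (adjusted p = 0.72), and neither passed the test. Against D-ME-iPSC it was called higher in ME without ME replicate 1, at 0.34 (adjusted p = 0.016).

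Rps21, a small protein of the small subunit, rose in both mammary groups. Its values were 8.69, 8.82 and 8.76 in D-TF-iPSC, 9.34, 9.41 and 9.35 in D-ME-iPSC and 9.50, 9.77 and 9.94 in ME, and no group overlapped another. Against D-TF-iPSC its log2 fold change stood at 0.61 ± 0.12 in D-ME-iPSC (adjusted p = 0.010) and 0.98 ± 0.12 in ME (adjusted p = 0.00082). The 3 probe sets disagreed in D-ME-iPSC, at 1.58, 0.26 and -0.02, whereas in ME they gave 1.43, 0.68 and 0.83. The difference between the iPSC-derived groups thus came mainly from 1 of the 3. With the median over probe sets in place of the mean, Rps21 was called in neither comparison, at 0.26 (adjusted p = 0.59) for D-ME-iPSC and 0.68 (adjusted p = 0.074) for ME.

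Rpl14, a protein of the large subunit, was the other gene called higher in both groups. Its values were 8.89, 8.92 and 9.04 in D-TF-iPSC, 9.43, 9.42 and 9.34 in D-ME-iPSC and 9.62, 9.48 and 9.39 in ME, so that both mammary groups lay above D-TF-iPSC and overlapped each other. The log2 fold change was 0.45 ± 0.099 in D-ME-iPSC (adjusted p = 0.017) and 0.55 ± 0.099 in ME (adjusted p = 0.0054). Both of its probe sets were higher, by 0.19 and 0.70 in D-ME-iPSC and by 0.43 and 0.67 in ME. The call in D-ME-iPSC lay near the threshold: the adjusted p was 0.052 to 0.078 without any one of the D-ME-iPSC arrays or without D-TF-iPSC replicate 1 or 2, and 0.061 with equal bright genes. The call in ME stood under each left-out array.

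Rps7 had the largest positive difference between the iPSC-derived groups and did not pass the test with all arrays. It is a small-subunit protein that can also bind Mdm2, the ubiquitin ligase of p53. The D-ME-iPSC values were 10.30, 10.35 and 10.43, those of D-TF-iPSC were 9.78, 9.69 and 9.41, and those of ME were 10.46, 9.27 and 9.61. The D-ME-iPSC arrays and ME replicate 1 stood together above the rest. The log2 fold change was 0.73 ± 0.26 (adjusted p = 0.11), and 0.73 with adjusted p = 0.0015 without ME replicate 1. One of its 2 probe sets gave 0.39 and the other 1.08, and in ME against D-ME-iPSC they gave -0.07 and -1.09.

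Against D-TF-iPSC, 9 ribosomal protein genes passed the test in ME cells. Rps21, Rps2, Rpl36, Rpl14, Rpl12, Rps6, Rpl8 and Rplp0 were higher and Rpl39l was lower, where 7.5% of all genes were called higher and 8.78% lower. The share called higher, 8 of 67, is not far from that background (16.3% either way). At an unadjusted p under 0.05, 18 were higher and 2 lower, against 13.4% and 15.8% of all genes (29.2% either way). The direction was more one-sided than the calls: 57 of the 67 log2 fold changes were positive (51.6% over all genes), with a median of 0.20, against 0.01 over all genes and -0.01 over the brightest 10%. The groups did not overlap for 25 genes that were higher and 3 that were lower in ME, against 14.4% and 14.9% of all genes. The median was 0.21 for the large and 0.17 for the small subunit. This comparison and the one above share the D-TF-iPSC arrays, so a gene that is low there by chance is counted in both.

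ME replicate 1 decided how many genes were called. Without it 30 ribosomal protein genes were higher and 2 lower in ME, against 16.4% and 22.8% of all genes, and all 9 genes named above were called again. The median log2 fold change rose to 0.25 (all genes 0.04, brightest 10% -0.11), and 60 of 67 were positive (54.8% over all genes). Of the large subunit 19 genes were called higher and 2 lower, of the small subunit 11 and 0. Leaving out any other single array gave between 2 and 6 higher genes. With only the probe sets numbered among their own chromosome, 7 of 60 genes were higher and 1 lower with all arrays, and 25 higher and 1 lower without ME replicate 1. With all arrays the median was then 0.19.

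**Figure D2:**
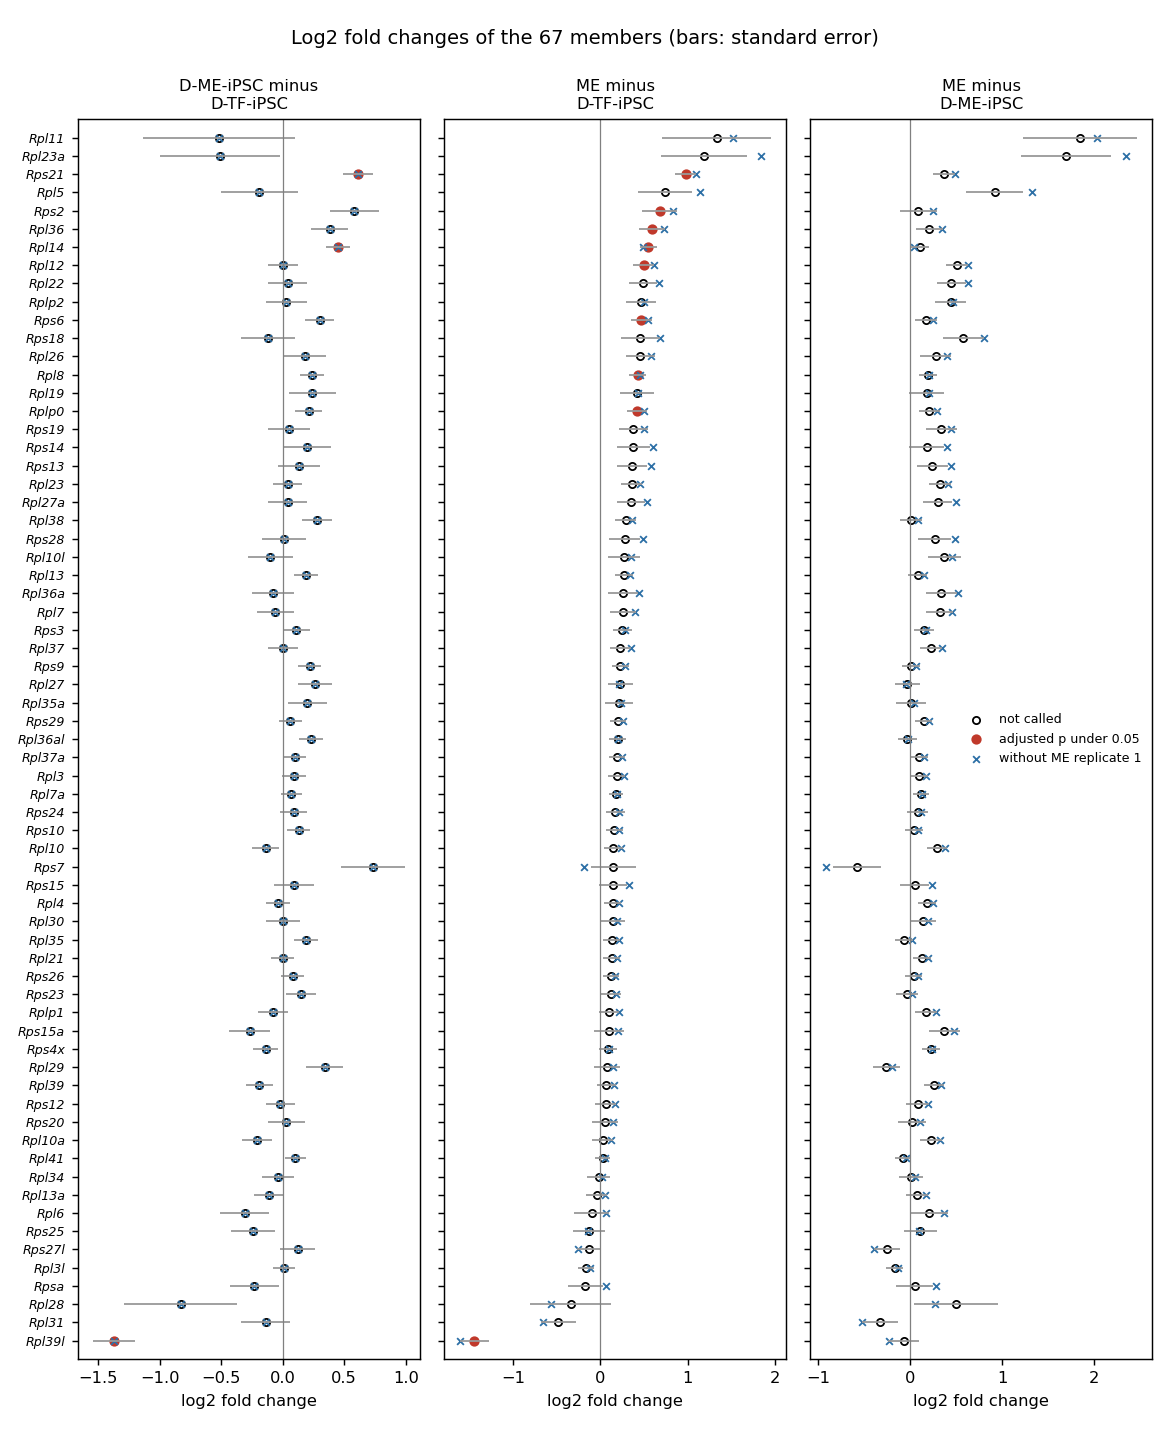
Log2 fold change of each of the 67 genes (rows, ordered by ME minus D-TF-iPSC) in the 3 comparisons (panels); circles are the fit to all 9 arrays with the standard error as bars, filled red where the adjusted p is under 0.05, and blue crosses the fit without ME replicate 1. Filled circles number 3 in the left panel, 9 in the middle and 0 in the right, and 57 circles in the middle panel lie to the right of 0.

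The ribosomal stalk, which recruits the elongation factors, is built of Rplp0 with dimers of Rplp1 and Rplp2, and Rpl12 lies at its base. Rplp0, also a common reference gene, was 11.29, 11.59 and 11.46 in ME, 11.20, 11.27 and 11.24 in the D-ME-iPSC arrays and 10.94, 11.16 and 10.98 in those of D-TF-iPSC. The ME arrays lay above all others, with a log2 fold change of 0.42 ± 0.11 against D-TF-iPSC (adjusted p = 0.030). Its 4 probe sets numbered among its own chromosome gave 0.58 ± 0.12 (adjusted p = 0.011). Rplp1 was 10.04, 10.38 and 10.37 in ME and 10.17, 10.21 and 10.13 in D-TF-iPSC, with overlap and a log2 fold change of 0.10 ± 0.12 (adjusted p = 0.65). Against D-ME-iPSC and without ME replicate 1, limma called Rplp0 (0.29, adjusted p = 0.039) and Rplp1 (0.28, adjusted p = 0.029) higher in ME. Rplp2 was 10.72, 10.94 and 10.70 in ME and 10.63, 10.21 and 10.12 in D-TF-iPSC, which did not overlap, and its log2 fold change of 0.47 ± 0.17 missed the threshold with all arrays (adjusted p = 0.093) and passed it without ME replicate 1, at 0.50 (adjusted p = 0.048). Its 3 probe sets gave 0.11, 0.44 and 0.86 with all arrays. For Rpl12 the values were 9.57, 9.85 and 10.02 in ME, 9.37, 9.25 and 9.30 in the D-ME-iPSC arrays and 9.34, 9.25 and 9.35 in those of D-TF-iPSC. The ME arrays were thus above both other groups, which overlapped, and the log2 fold change was 0.50 ± 0.12 against D-TF-iPSC (adjusted p = 0.023) and 0.59 ± 0.17 with the 4 probe sets of its own chromosome (adjusted p = 0.041).

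The S6 protein Rps6, the substrate of the S6 kinases and a standard readout of mTOR activity in its phosphorylated form, was 10.37, 10.74 and 10.47 in ME, 10.28, 10.36 and 10.43 in the D-ME-iPSC arrays and 10.14, 10.03 and 9.98 in those of D-TF-iPSC. No array of either mammary group was as low as the highest D-TF-iPSC array. The log2 fold change was 0.47 ± 0.12 in ME (adjusted p = 0.024) and 0.30 ± 0.12 in D-ME-iPSC, which did not pass with all arrays (adjusted p = 0.14) and did without ME replicate 1 (adjusted p = 0.041). These are mRNA levels and say nothing of its phosphorylation. Rpl8, a protein near the catalytic centre of the large subunit, was 11.30, 11.38 and 11.36 in ME and 10.85, 11.05 and 10.86 in D-TF-iPSC, with D-ME-iPSC between them at 11.10 to 11.23. Its log2 fold change in ME was 0.43 ± 0.097 (adjusted p = 0.016), and all 5 of its probe sets were higher, by 0.16 to 0.73.

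The calls of Rps2 and Rpl36 depend on which probe sets are read. Rps2, a small-subunit protein at the entry of the mRNA channel, was 8.25, 8.59 and 8.83 in ME and 7.59, 8.20 and 7.85 in D-TF-iPSC, with a log2 fold change of 0.68 ± 0.20 (adjusted p = 0.046). Of its 5 probe sets, the 2 with the largest differences, 1.85 and 1.20, are numbered among chromosomes 18 and X. The other 3, numbered among its own chromosome 17, gave 0.21, -0.16 and 0.29. On those 3 alone Rps2 was not called. Rpl36, a protein of the large subunit, was 8.70, 9.32 and 8.93 in ME and 8.35, 8.49 and 8.33 in D-TF-iPSC, with a log2 fold change of 0.59 ± 0.15 (adjusted p = 0.027). Here the probe set of the gene's own chromosome 17 carried the difference, at 0.86 ± 0.19 (adjusted p = 0.014), and the one numbered among chromosome 15 gave 0.32. On its own-chromosome probe set Rpl36 was also called higher in D-ME-iPSC, at 0.74 ± 0.19 (adjusted p = 0.031). On all probe sets and without ME replicate 1, limma called Rps2 (0.58, adjusted p = 0.022) and Rpl36 (0.38, adjusted p = 0.025) higher in D-ME-iPSC. Rps2 was not called there on its own-chromosome probe sets (adjusted p = 0.54). Without ME replicate 1, Rpl36 was also called higher in ME than in D-ME-iPSC, at 0.35 (adjusted p = 0.046).

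**Figure D3:**
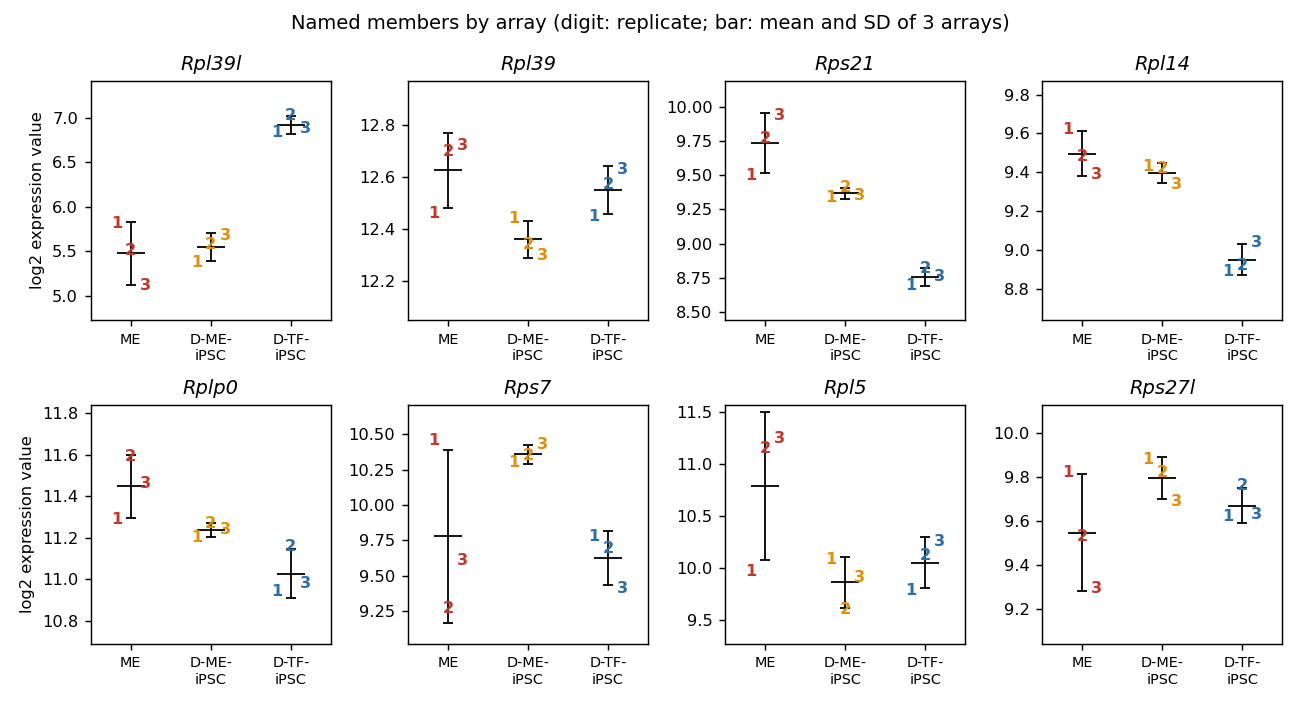
Log2 expression values of 8 ribosomal protein genes by group; each digit is an array (its replicate number), and the bar is the mean with the SD of the 3 arrays, with a separate y axis for each gene. Rpl39l is highest and Rps21, Rpl14 and Rplp0 lowest in the 3 D-TF-iPSC arrays. ME replicate 1 lies with the D-ME-iPSC arrays for Rps7, and within the range of both iPSC-derived groups for Rpl5.

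The starts of a few transcripts are shown here, since a TOP tract lies at the start of the mRNA. The windows are from RefSeq (GRCm38.p6), from 10 bases before the annotated start to 20 bases from it, 5′ to 3′, with the longest run of C and T in capitals. Those of Rpl14, Rps6, Rps21, Rpl12, Rplp0 and Rps2 belong to genes called higher in ME, and the Rpl39 and Rpl39l windows show the pair that came apart.
Rpl14, chr9:120571507-120571536, + strand: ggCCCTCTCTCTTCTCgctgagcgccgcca
Rps6, chr4:86857348-86857377, - strand: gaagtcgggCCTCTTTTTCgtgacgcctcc
Rps21, chr2:180257369-180257398, + strand: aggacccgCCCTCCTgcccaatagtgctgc
Rpl12, chr2:32961702-32961731, + strand: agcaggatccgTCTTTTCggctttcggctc
Rplp0, chr5:115559457-115559486, + strand: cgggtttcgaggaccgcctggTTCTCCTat
Rps2, chr17:24720053-24720082, + strand: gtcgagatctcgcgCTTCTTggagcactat
Rpl39, chrX:37085203-37085232, - strand: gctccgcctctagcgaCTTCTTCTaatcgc
Rpl39l, chr16:10170218-10170247, + strand: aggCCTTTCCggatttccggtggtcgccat
The longest run was 14 bases in Rpl14, 10 in Rps6 and 8 in Rpl39, and between 6 and 7 in the others, Rpl39l among them with 7. Runs were marked wherever they lie in the window, and its first 10 letters precede the annotated start. That of Rpl39l lies wholly within those letters, and those of Rplp0, Rps2 and Rpl39 begin some bases after the start. The lengths are therefore not those of TOP tracts. Starts were found for 55 of the 67 genes, 67 starts in all. A run of at least 8 bases stood at any position in 20 of these 67 windows (29.9%), against 11.2% of 32851 starts of all genes, which is not a count of TOP tracts. The motif CGGAAG, the core bound by Ets factors such as GABP, was found on either strand in 41 of the 67 promoters of 300 bases (61.2%), against 16.9% of all promoters, and CTCTTT, a stretch of pyrimidines, on either strand in 30 (44.8%) against 23%. The first listed start was used for Rps21, which has 2. Annotated starts can lie some bases from the start a cell uses, and a match is a description of the letters only.

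Of the paralogs, Rpl39l was the only one called with all arrays, in any of the 3 comparisons. Rpl3l, the striated muscle form of Rpl3, was dim in all arrays (5.71 to 5.85 in ME, 5.87 to 6.02 in the D-ME-iPSC arrays and 5.90 to 5.98 in those of D-TF-iPSC), and Rpl3 differed by 0.19 ± 0.098 between ME and D-TF-iPSC (adjusted p = 0.24), and by 0.27 without ME replicate 1, which passed the test (adjusted p = 0.027). Rpl10l, a retrogene of X-linked Rpl10 known from male germ cells, was also dim, at 5.88, 6.32 and 5.96 in ME and 5.45, 5.89 and 6.03 in D-TF-iPSC, with overlap. Rpl36al, the autosomal copy of X-linked Rpl36a, was 12.75, 12.92 and 12.61 in ME, 12.75, 12.76 and 12.85 in the D-ME-iPSC arrays and 12.58, 12.59 and 12.50 in those of D-TF-iPSC. Both mammary groups lay above D-TF-iPSC, by 0.20 ± 0.10 (adjusted p = 0.25) and 0.23 ± 0.10 (adjusted p = 0.22), and neither passed the test. Rps27l, a target of p53, was 9.82, 9.53 and 9.29 in ME, 9.88, 9.82 and 9.69 in the D-ME-iPSC arrays and 9.62, 9.76 and 9.63 in those of D-TF-iPSC, all overlapping with ME replicate 1 included.

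Rpsa, the laminin receptor precursor and a protein of the small subunit, overlapped between all groups, at 8.02, 8.83 and 8.60 in ME, 8.32, 8.49 and 8.49 in the D-ME-iPSC arrays and 8.82, 8.47 and 8.69 in those of D-TF-iPSC. Rpl13a, a common reference gene that also silences inflammatory mRNAs in human monocytes, was 12.19, 12.60 and 12.36 in ME, 12.29, 12.32 and 12.33 in the D-ME-iPSC arrays and 12.47, 12.50 and 12.30 in those of D-TF-iPSC. Its log2 fold change in ME was -0.04 ± 0.12 (adjusted p = 0.87), which stands apart from Rplp0, another reference gene, at 0.42. Rps19, mutated in human Diamond-Blackfan anaemia, was 10.07, 10.67 and 10.15 in ME and 9.96, 10.10 and 9.68 in D-TF-iPSC, which overlapped. Its 0.38 ± 0.17 did not pass with all arrays (adjusted p = 0.17), and its 0.50 without ME replicate 1 did (adjusted p = 0.036). Rps18, a further reference gene, was 8.45, 9.11 and 9.13 in ME, 8.56, 8.27 and 8.12 in the D-ME-iPSC arrays and 8.13, 8.58 and 8.61 in those of D-TF-iPSC. ME replicates 2 and 3 lay above all iPSC-derived arrays and replicate 1 did not, and without it the log2 fold change of 0.68 against D-TF-iPSC passed the test (adjusted p = 0.0097).

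Some of the largest differences in ME belonged to genes read by a single probe set. Rpl5 and Rpl11 join the 5S ribosomal RNA in the particle that can bind Mdm2. Rpl5 was 9.97, 11.15 and 11.24 in ME, 10.08, 9.60 and 9.91 in the D-ME-iPSC arrays and 9.78, 10.12 and 10.25 in those of D-TF-iPSC. ME replicates 2 and 3 stood above every other array and replicate 1 within them, and the log2 fold change of 0.74 ± 0.31 (adjusted p = 0.15) became 1.14 without replicate 1 (adjusted p = 0.00047). Rpl11 was 7.22, 7.14 and 8.45 in ME, 6.62, 4.16 and 6.49 in the D-ME-iPSC arrays and 5.90, 6.66 and 6.26 in those of D-TF-iPSC. The ME arrays were above all others, but the spread, with an SD of 1.4 in D-ME-iPSC, left 1.33 ± 0.62 short of the threshold (adjusted p = 0.19). Against D-ME-iPSC, limma called Rpl11 higher in ME without replicate 1, at 2.04 (adjusted p = 0.037). Both probe sets are numbered among another chromosome than their gene. Rpl23a, at the tunnel exit where the signal recognition particle docks, was 7.23, 9.34 and 9.02 in ME, 6.61, 6.48 and 7.40 in the D-ME-iPSC arrays and 7.40, 7.47 and 7.15 in those of D-TF-iPSC, and its probe set is numbered among its own chromosome 11. Its log2 fold change was 1.19 ± 0.49 (adjusted p = 0.14), and 1.84 without ME replicate 1 (adjusted p = 0.00026).

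Between ME and D-ME-iPSC no ribosomal protein gene was called, and none of the 20422 genes was (0%). At an unadjusted p under 0.05 by limma, 11 were higher in ME and 0 lower, against 8.03% and 10.9% of all genes (18.9% either way), and the methods' t-test gave 7 and 1, against 3.07% and 2.19% of all genes. The sign was one-sided here too: 56 of 67 log2 fold changes were positive (51.3% over all genes), with a median of 0.15, against 0.01 over all genes and -0.12 over the brightest 10%. The ME arrays are the same as in the comparison with D-TF-iPSC, so this is not a separate result. The groups did not overlap for 17 genes that were higher and 2 that were lower, against 8.11% and 5.96% of all genes. Of those 17, the largest log2 fold changes were 1.85 for Rpl11, 0.51 for Rpl12, 0.45 for Rpl22, 0.44 for Rplp2 and 0.37 for Rpl10l. For Rpl22, 1 of 4 probe sets gave 1.47 and the others -0.04, 0.28 and 0.08. For Rplp2, 1 of 3 gave 1.21 and the others -0.07 and 0.19. These 2 changes thus came mainly from a single probe set. The 2 lower genes were Rpl3l at -0.17 and Rpl41, which encodes the shortest of these proteins, at -0.08. None of these passed the test with all arrays.

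Without ME replicate 1 the same comparison gave 23 higher and 3 lower genes, where 15.1% and 23.6% of all genes were called. Of the 67 changes 58 were positive (55.1% over all genes). The median was then 0.24 over the ribosomal protein genes, 0.05 over all genes and -0.21 over the brightest 10%. Among the higher genes were Rpl23a at 2.35 (adjusted p = 7.6e-05), Rpl5 at 1.33 (adjusted p = 0.00023), Rps18 at 0.80 (adjusted p = 0.0044), Rpl12 at 0.63 (adjusted p = 0.00062), Rpl22 at 0.63 (adjusted p = 0.0020) and Rps21 at 0.49 (adjusted p = 0.0024), all by limma. The 3 lower genes were Rps7 at -0.92 (adjusted p = 0.00059), Rpl31 at -0.52 (adjusted p = 0.030) and Rps27l at -0.39 (adjusted p = 0.018). Rpl22, which also binds RNAs outside the ribosome, was 9.85, 10.51 and 10.28 in ME, with 9.62 to 9.85 in D-ME-iPSC. With all arrays its difference came mainly from 1 probe set, as given above. With only own-chromosome probe sets, 17 of 60 genes were higher and 2 lower without ME replicate 1. This fit compares 2 arrays with 3, and the 2 ME arrays kept are also those with more signal from fibroblast and immediate early genes, whose part in the result was not tested.

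Other genes of ribosome production and translation are set beside these results; the differences between lists were not tested. The shares of all genes called, given above for each comparison, are the background of these counts too. Of 41 ribosome biogenesis genes, 14 were called higher and 0 lower in D-ME-iPSC, set against D-TF-iPSC, with a median log2 fold change of 0.50, while the ribosomal protein genes had a median of 0.04. The largest were Eif6, which keeps the subunits apart until the large one is mature, at 1.30 ± 0.20 (adjusted p = 0.0027), and Nhp2, of the box H/ACA snoRNPs that guide pseudouridylation of ribosomal RNA, at 1.00 ± 0.18 (adjusted p = 0.0068). In ME against D-TF-iPSC, 6 were higher and 0 lower, Nop58 (0.57) and Rcl1 (0.55) leading, with a median of 0.13. Without ME replicate 1, 10 were higher and 14 lower with a median of -0.12, where 16.4% and 22.8% of all genes were called. Against D-ME-iPSC, again without it, 1 was higher and 30 lower with a median of -0.64, where 15.1% and 23.6% were called. Of 15 genes for RNA polymerase I and its factors, which transcribe the ribosomal RNA, 2 were higher in D-ME-iPSC (Taf1a at 0.61 and Polr1d at 0.59) and 1 in ME (Znrd1 at 0.53). In ME, 3 were higher and 5 lower without ME replicate 1. The summed level of the genes of dividing cells was highest in the D-ME-iPSC arrays and in ME replicate 1, as was that of both lists. In ME replicates 2 and 3 it was 10.83 and 11.95. There ribosome biogenesis stood at 14.73 and 14.75 and RNA polymerase I at 12.60 and 12.51, without that rise. The part of the genes of dividing cells in these lists was not tested.

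**Figure D4:**
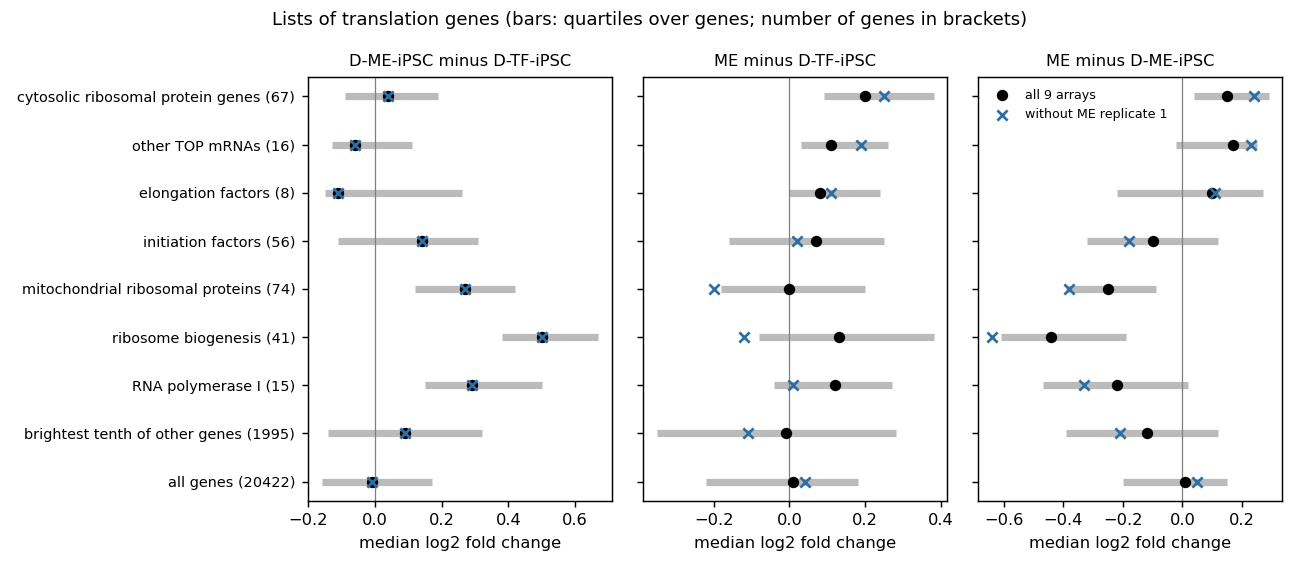
Median log2 fold change of lists of translation genes (rows, number of genes in brackets) in the 3 comparisons (panels); circles are the fit to all 9 arrays, grey bars the quartiles over genes, and crosses the medians without ME replicate 1. Ribosome biogenesis genes stand at 0.50 in the left panel and -0.44 in the right, where the ribosomal protein genes stand at 0.04 and 0.15.

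Mitochondrial ribosomal proteins, which nuclear genes encode for the ribosome inside mitochondria, numbered 74. Of these, 6 were higher and 0 lower in D-ME-iPSC, with a median of 0.27, Mrpl53 (1.22) and Mrpl14 (0.65) leading. In ME against D-TF-iPSC 4 were higher, with Mrpl32 (0.74) and Mrps30 (0.63) the largest, and 2 lower, Mrpl33 (-0.65) and Mrps36 (-0.57), with a median of 0.00. This became 6 higher and 19 lower without ME replicate 1, with a median of -0.20. Against D-ME-iPSC the median was -0.25, and -0.38 without ME replicate 1, with 4 higher and 39 lower, where 15.1% and 23.6% of all genes were called. Other mRNAs with a TOP tract, 16 genes such as those of elongation factors, had the same sign as the cytosolic set in both comparisons of ME: their medians were -0.06, 0.11 and 0.17 in the 3 comparisons, with all arrays, and 0 were called by limma in each at an adjusted p under 0.05 and 1 higher, 3 higher, and 4 higher with 1 lower at an unadjusted p under 0.05. Of the 16, 5 were called higher in ME against D-TF-iPSC when ME replicate 1 was left out, and 7 higher and 1 lower against D-ME-iPSC. Of 56 genes listed as initiation factors, 4 were higher in D-ME-iPSC and 0 lower (Eif6 and Eif1ad leading). Eif6 is also counted among the ribosome biogenesis genes. In ME 5 were higher, Eif5 (0.54) and Eif2a (0.52) the largest, and 1 lower, Eif2ak2, at -1.98 ± 0.47 (adjusted p = 0.020). Eif2ak2 encodes the interferon-induced kinase PKR rather than an initiation factor. Leaving out ME replicate 1 gave 9 higher and 14 lower genes of this list in ME. Of 8 genes listed as elongation factors, Eef1e1 was called, at 1.14 in D-ME-iPSC, and it is an elongation factor by symbol only. In ME 2 genes of that list were higher without ME replicate 1.

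Of 11 regulators of ribosomal protein synthesis, 2 were called in each comparison against D-TF-iPSC with all arrays, and 1 higher and 3 lower in ME without ME replicate 1. Rps6kb1, the S6 kinase that phosphorylates Rps6, was 10.68, 10.65 and 10.70 in D-TF-iPSC, 9.96, 9.98 and 9.97 in D-ME-iPSC and 10.03, 9.34 and 9.53 in ME. All mammary arrays lay below D-TF-iPSC, by -0.71 ± 0.16 (adjusted p = 0.018) and -1.05 ± 0.16 (adjusted p = 0.0023). Rps6 itself was called higher in ME, as given above, and not in D-ME-iPSC with all arrays. Eif4ebp2, an mTOR target that restrains cap-dependent translation, was higher in D-ME-iPSC by 0.57 ± 0.13 (adjusted p = 0.020). Myc, which drives ribosome production in many cells and was 1 of the 4 reprogramming factors, was 10.58, 11.24 and 11.18 in ME, 10.57, 10.54 and 10.57 in the D-ME-iPSC arrays and 10.19, 10.16 and 10.02 in those of D-TF-iPSC. It rose in ME by 0.87 ± 0.17 (adjusted p = 0.0072), and its 0.44 ± 0.17 in D-ME-iPSC did not pass with all arrays (adjusted p = 0.13) and did without ME replicate 1 (adjusted p = 0.0026). The 3 groups did not overlap for Myc. Of ribosomal proteins that the naming rule leaves out, Fau, Rpl22l1 and Rpl7l1 were measured and none was called with all 9 arrays. With ME replicate 1 left out, Fau was called higher (adjusted p = 0.014) and Rpl7l1 lower (adjusted p = 0.0015) in ME against D-TF-iPSC. Rpl7l1 was then also lower against D-ME-iPSC (adjusted p = 0.00038).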

How the data were processed

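RNA of 9 samples in 3 groups (D-TF-iPSC, D-ME-iPSC and ME, with 3 arrays in each) was hybridised to Affymetrix mouse gene arrays. The deposited file holds a log2 value for each exon-level probe set, made by the authors with RMA in Partek (background correction, normalization and summary). Neither version nor setting is given in the sources used here. Array labels gave the groups. Of 241576 probe sets, 212138 carry 1 gene symbol and were used, 4672 carry several and 24766 none. Values ranged from 2.56 to 14.45, and no filter on dim genes was applied. A gene is the mean of its probe sets.

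Limma 3.58.1 (R 4.3.3) modelled the 9 arrays with a mean for each group. Calls were made below an adjusted p of 0.05 (Benjamini-Hochberg, 20422 genes), and an SE is that of the moderated fit. The test was checked on simulated data. Probe set numbers and chromosomes were compared through the RefSeq table of GRCm38.p6 (Python 3.11.15, pandas 2.3.3). The number of arrays limits the precision.

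The genes, gene lists and alternatives were chosen with earlier results of these data known. Genes named are the stalk proteins, Rpsa, paralogs ending in l with their parent genes, Rpl5, Rpl11, Rpl13a, Rpl32 (not analysed here), Rps6, Rps18 and Rps19, in each comparison the 5 largest called changes each way among genes whose arrays do not overlap (where none is called, the 5 largest uncalled), and the 2 largest called genes of each further list. Other genes named were chosen after their values were seen. Alternatives were quantile normalization, equal bright genes, the median of probe sets, only genes above the median level, only the 6 arrays compared, a trended robust spread, a block for the replicate number, the methods' t-test, a threshold of 0.01, and each array left out. Those on the number of probe sets, their numbering and combinations without ME replicate 1 were chosen after seeing the data. Another background correction was not run.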

Additional observations from a re-analysis of the deposited data

How the results depend on the processing

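With single arrays left out, the medians kept their size better than the counts. The scaling of the arrays moved the medians as well, as given above for equal bright genes and below for fits without ME replicate 1. Leaving out each array in turn gave medians of 0.03 to 0.08 (D-ME-iPSC against D-TF-iPSC), 0.15 to 0.25 (ME against D-TF-iPSC) and 0.09 to 0.24 (ME against D-ME-iPSC). The number of genes called moved with nearly every choice. In D-ME-iPSC against D-TF-iPSC (2 higher, 1 lower), leaving out each array gave 0 to 6 higher: 0 without replicate 2 of D-ME-iPSC and 0 without replicate 1 of D-TF-iPSC, 1 without replicate 1 or 3 of D-ME-iPSC and 1 without replicate 2 of D-TF-iPSC, and 6 without ME replicate 1 or 2. Equal bright genes gave 0 higher, the median of probe sets 1, only the 6 arrays compared 13 higher and 2 lower (20.6% and 17.6% of all genes), the methods' t-test 18 higher and 2 lower unadjusted (21.9% and 19%) and 10 higher adjusted (16.9%), an adjusted p under 0.01 gave 0 higher, only genes with 3 or more probe sets 1, and only genes above the median level, which drops the dim Rpl39l, 0 lower. Without ME replicate 1 and with quantile normalization 5 were higher, with own-chromosome probe sets 5, and with equal bright genes 4 higher and 3 lower.

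In ME against D-TF-iPSC (8 higher, 1 lower), leaving out each array gave 2 to 30 higher and 1 to 2 lower: 30 and 2 without ME replicate 1, 5 higher without replicate 3 of ME, replicate 3 of D-ME-iPSC or replicate 2 of D-TF-iPSC, 3 without D-TF-iPSC replicate 1 and 2 without D-TF-iPSC replicate 3. Equal bright genes gave 3 higher, only the 6 arrays compared 2 (4.1% of all genes), the methods' t-test 13 higher and 2 lower unadjusted (9.37% and 10.1%) and 0 and 0 adjusted, an adjusted p under 0.01 gave 2 higher, genes with 3 or more probe sets 5, and only genes above the median level 0 lower. Without ME replicate 1, quantile normalization gave 43 higher and 2 lower (median 0.41; all genes 21.5%, 19.1% and 0.11), equal bright genes 38 and 2 (22.4% and 20% of all genes), and own-chromosome probe sets 25 higher. In ME against D-ME-iPSC (0 and 0), the methods' t-test gave 7 higher and 1 lower unadjusted, leaving out each array 0 to 23 higher and 0 to 3 lower (23 and 3 without ME replicate 1), and without ME replicate 1 quantile normalization gave 39 and 1 (median 0.37; all genes 23.3%, 18.5% and 0.14), equal bright genes 45 and 1 (median 0.40; all genes 36.2%, 17.8% and 0.21) and own-chromosome probe sets 17 and 2. Without ME replicate 1, the scaling to equal bright genes moved the median of all genes from 0.04 to 0.12 (ME against D-TF-iPSC) and from 0.05 to 0.21 (ME against D-ME-iPSC). Where a value changed, the cause was not tested beyond what the setting itself removes.

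Arrays share replicate numbers only by name: the deviations of same-numbered arrays from their group means correlated at -0.18 to 0.16. With the number as a replicate block, D-ME-iPSC against D-TF-iPSC had 1 higher gene, as Rpl14 fell short (adjusted p = 0.051), and in ME Rps2 (adjusted p = 0.063) and Rps6 (adjusted p = 0.052) fell short. Of 78 named values, 75 kept direction and side of the threshold under the block, 78 under quantile normalization and 55 without ME replicate 1, where the other 23 passed it. With 3 arrays a group and 1 probe set for 16 of the genes, small differences of single genes are at the limit of these data.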

Other observations

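The 4 X-linked genes, looked at together after their values were seen, each had a lower mean in D-ME-iPSC, set against D-TF-iPSC: Rpl10, Rpl36a, Rpl39 and Rps4x had log2 fold changes of -0.19 to -0.08, with a median of -0.14, while the 63 autosomal genes had a median of 0.06. In ME against D-ME-iPSC the X-linked genes lay at 0.23 to 0.34 and the autosomal ones at a median of 0.14. None of the 4 was called in either comparison with all arrays. Rpl10, Rpl36a and Rpl39 were called higher in ME against D-ME-iPSC without ME replicate 1, and the probe set of Rpl36a is numbered among chromosome 14. For Rpl10, 1 of 4 probe sets is numbered among chromosome 9. On the other 3 its log2 fold change in that comparison was 0.18 with all arrays. Without ME replicate 1 it was 0.22 and Rpl10 was not called (adjusted p = 0.082 by limma).

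The number of probe sets went with the size of the shift between the iPSC-derived groups, which was not tested. The 16 genes with 1 probe set had a median log2 fold change of -0.11 and 5 of them were positive, while the 36 genes with 3 or more had a median of 0.09 and 26 were positive. In ME against D-TF-iPSC the medians were 0.22 and 0.20.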
